A study of Mus musculus with 8 samples.

Results

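The respiratory chain was examined complex by complex, separately for subunits encoded in the nucleus and in mitochondrial DNA. Members were the genes whose symbols carry the usual stems of complex I (Nduf), complex II (Sdh), complex III (Uqcr), complex IV (Cox4 to Cox8) and complex V, the ATP synthase (Atp5), together with the protein-coding mitochondrial genes. The symbols alone chose them, without reference to any level. They came to 97 of the 35204 genes in the deposited table, 84 nuclear and 13 mitochondrial. By complex they numbered 42, 4, 9, 23 and 19 for I to V, with Ndufa4 counted in complex IV. Of these, 91 had a mean of at least 10 normalised counts over the 8 libraries and were tested, 78 nuclear and all 13 mitochondrial. The 6 left untested were Cox4i2, Cox6a2, Cox6c2, Cox7b2, Cox8b and Cox8c. Cox7a1 lay just above that limit, at 8.96 to 22.3 normalised counts, and Cox4i2 just below it, at 0 to 13.6.

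The respiratory chain passes electrons from NADH and succinate through complexes I to IV to oxygen and pumps protons across the inner mitochondrial membrane, and complex V uses that gradient to make ATP. Every complex except II is built from subunits of both genomes: the mitochondrial genes encode hydrophobic subunits of the membrane core, are transcribed as long precursors from both strands of a small circular genome and are cut apart at transfer RNAs. Hepatocytes are rich in mitochondria and depend on oxidative phosphorylation for urea synthesis, gluconeogenesis and fat oxidation.

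The 8 libraries hold poly-A RNA of mouse liver, and 3 of them are controls from untreated wild-type C57BL/6J mice. The other 5 (TAZ-CCl4) are from mice of the same strain, labelled wild type, that were given TAZ S89A under the EF1a promoter by HTVI and carbon tetrachloride (CCl4) 30 times, 3 times a week over 10 weeks. TAZ is a transcriptional coactivator of the Hippo pathway, S89A removes a phosphorylation site that restrains it, HTVI (hydrodynamic tail vein injection) delivers DNA mainly to hepatocytes, and CCl4 is a liver toxin. The groups differ in both construct and toxin, so the effects of these cannot be told apart. Control and TAZ-CCl4 libraries carry different library project names in the labels, so project and group cannot be told apart either. Nothing in the labels says that the libraries are from separate mice, so a p-value reflects only the variation among the libraries of a group, which may be technical.

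Values are the authors' normalised counts, whose totals were 29.8 to 35.1 M in controls and 12.4 to 14.2 M in TAZ-CCl4 libraries. Estimated depth was 18.6 to 24.9 M and 12.4 to 33.8 M reads. Because the totals differ this much, most results are given at the deposited scaling and again at equal totals, where the median of all tested genes moved from 0.03 to 1.26 on the log2 scale. The labelled tissue held: the hepatocyte markers Alb, Ttr and Apoa1 were abundant in every library. The 6 hepatocyte markers summed to 1814100 to 2280710 in controls and 692979 to 988901 in TAZ-CCl4 libraries, and 5 of 6 fell, against 2 of 6 at equal totals. Over all tested genes 29.8% were lower and 32.4% higher as deposited, and 6.37% and 76.3% at equal totals. All 5 cholangiocyte markers rose (sums 263 to 336 against 1904 to 6873), as did 3 of 5 stellate cell markers (441 to 620 against 2622 to 4868) and 3 of 4 macrophage markers (979 to 1560 against 3139 to 7425). Of 4 endothelial markers 2 rose and 1 fell (1064 to 1884 against 1526 to 2420), 2 of 3 T cell markers rose (16.8 to 26.3 against 55.5 to 168) and 1 of 3 B and plasma cell markers rose (51.7 to 98.0 against 221 to 1138). All 3 erythroid markers fell (6957 to 7547 against 604 to 2722), against 1 of 3 at equal totals. Markers of muscle, brown fat and testis summed to at most 40.6 in any library. The part of these shifts in the results below was not tested. In whole liver, fewer cells of a type and less RNA per cell cannot be told apart.

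Mitochondrially encoded transcripts were lower relative to nuclear respiratory chain transcripts in every TAZ-CCl4 library. The summed signal of the 13 mitochondrial members was 14.2, 11.4 and 12.6 times that of the nuclear members in control replicates 1 to 3. In TAZ-CCl4 replicates 1 to 5 it was 4.30, 5.64, 4.47, 7.35 and 4.56 times. The groups did not overlap, and TAZ-CCl4 replicate 4 stood closest to the controls. The means were 12.7 ± 1.40 (SD, n = 3) and 5.26 ± 1.28 (SD, n = 5), a 2.41-fold difference. This ratio is taken within a library, so dividing a library by any factor leaves it as it is. Quantile normalisation, which gives genes of equal rank equal values, turned the log2 difference between the groups from -1.30 to 0.20.

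The 2 parts of the ratio behaved differently as shares of a library. Mitochondrial members made up 12.8%, 11.7% and 14.3% of the signal in control replicates 1 to 3 and 3.66%, 4.90%, 4.46%, 6.96% and 4.38% in TAZ-CCl4 replicates 1 to 5. Nuclear members made up 0.906%, 1.03% and 1.13% in controls and 0.852%, 0.868%, 0.997%, 0.948% and 0.960% in TAZ-CCl4 libraries. Only the mitochondrial share separated the groups; the nuclear shares overlapped, with control replicate 1 inside the TAZ-CCl4 range. Both were also set against the summed genes of the citric acid cycle and pyruvate dehydrogenase, which act in the mitochondrial matrix. The Sdh genes, being members, are not in that sum. The nuclear members stood at 5.62 to 6.12 times that sum in controls and 3.82 to 4.63 in TAZ-CCl4 libraries. The mitochondrial members stood at 63.8 to 83.1 and 16.8 to 28.3 on the same measure, and neither comparison overlapped between groups.

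**Figure D1:**
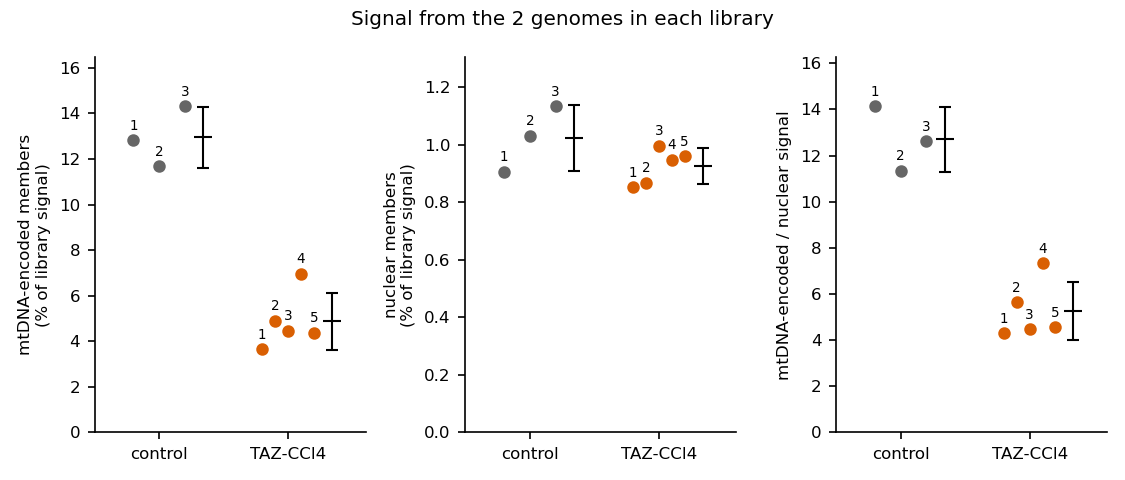
Signal of the mitochondrial and nuclear members in each library: percent of the library's summed normalised counts (left, middle) and the ratio of the sums (right), by group. Points are libraries with their replicate numbers, bars the mean and SD; the ratio is 11.4 to 14.2 in controls and 4.30 to 7.35 in TAZ-CCl4 libraries, while the nuclear shares overlap.

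At the deposited scaling, transcripts of nearly the whole chain were lower in TAZ-CCl4 liver. Of 91 tested members 88 fell (limma on log2 of the value plus 1, Benjamini-Hochberg adjusted p under 0.05 over 14171 genes), where 29.8% of all tested genes were lower, 32.4% higher and 62.3% changed in either direction. Only Cox6b2 rose, and Cox7a1 and Cox7a2l did not pass. The groups did not overlap for 89 members that were lower and 1 that was higher, against 29.4% and 30.7% of all tested genes. The median log2 fold change was -1.45 for nuclear members and -2.66 for mitochondrial members, or 36.7% and 16.2% of the control mean. Of all tested genes, 10.3% lay at or below the first median and 3.39% at or below the second.

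The direction held for the mitochondrial genes at equal totals, and for most nuclear genes it could not be called there. Some other scalings kept most nuclear calls. Nuclear members lower numbered 75 as deposited, 75 at equal upper quartiles and 66 under quantile normalisation. With totals set equal leaving out Mup and mitochondrial genes they numbered 61. At equal totals 33 members were lower, 5 higher and 53 not called, where 6.37% of all tested genes were lower, 76.3% higher and 82.6% called in either direction. The 33 were all 13 mitochondrial members and 20 nuclear ones, and the medians were -1.40 and -0.20. Under quantile normalisation 6 of the 13 mitochondrial members passed as lower; mt-Co1, mt-Co2, mt-Co3, mt-Cytb, mt-Nd1, mt-Nd4 and mt-Nd5 did not (log2 fold changes -0.73 to -0.13). Of the nuclear members described below, Ndufa2, Sdhc, Atp5e, Atp5b and Atp5g3 also lost their calls in that setting. With each library instead centred on its mean log2 value over the nuclear members, all 13 mitochondrial members were again lower, by 1.28 at the median (log2 fold change -1.28). In that fit 17 nuclear members were lower and 9 higher than the nuclear average, where 5.65% of all genes were lower, 79.5% higher and 85.2% called.

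The nuclear parts of the complexes lay close to each other. At the deposited scaling the median log2 fold changes of the nuclear subunits were -1.43 for complex I (35 of 35 lower), -1.53 for complex II (4 of 4), -1.69 for complex III (8 of 8), -1.43 for complex IV (11 of 14) and -1.28 for complex V (17 of 17). At equal totals they were -0.18, -0.28, -0.44, -0.18 and -0.03, with 6, 1, 5, 5 and 3 members lower and 2, 1, 0, 2 and 0 higher. Complex III made up 12.6% to 12.8% of the nuclear signal in controls and 10.1% to 10.8% in TAZ-CCl4 libraries. Complex V made up 34.7% to 34.8% and 35.9% to 37.2%. These are the complexes whose shares did not overlap between groups, lower for III and higher for V. The shares of complexes I, II and IV overlapped.

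Within each complex that draws on both genomes, the mitochondrial subunits were lower relative to their nuclear partners. The ratio of mitochondrial to nuclear signal was 13.3 to 16.5 in controls and 4.4 to 8.53 in TAZ-CCl4 libraries for complex I, 10.8 to 12.8 and 5.15 to 9.32 for complex III. It was 25.6 to 31.4 and 10.3 to 15.8 for complex IV, and 4.26 to 5.21 and 1.22 to 2.27 for complex V. The fold between the group means was 2.58, 1.77, 2.35 and 2.95 in that order. Copies of the mitochondrial genes in the nuclear genome, described below, are not counted in these ratios. The copy of mt-Atp6 (complex V) was higher in TAZ-CCl4 libraries, so the order of the folds may depend on them. None of the 4 ratios overlapped between groups, and TAZ-CCl4 replicate 4 was the highest of its group in each.

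**Figure D2:**
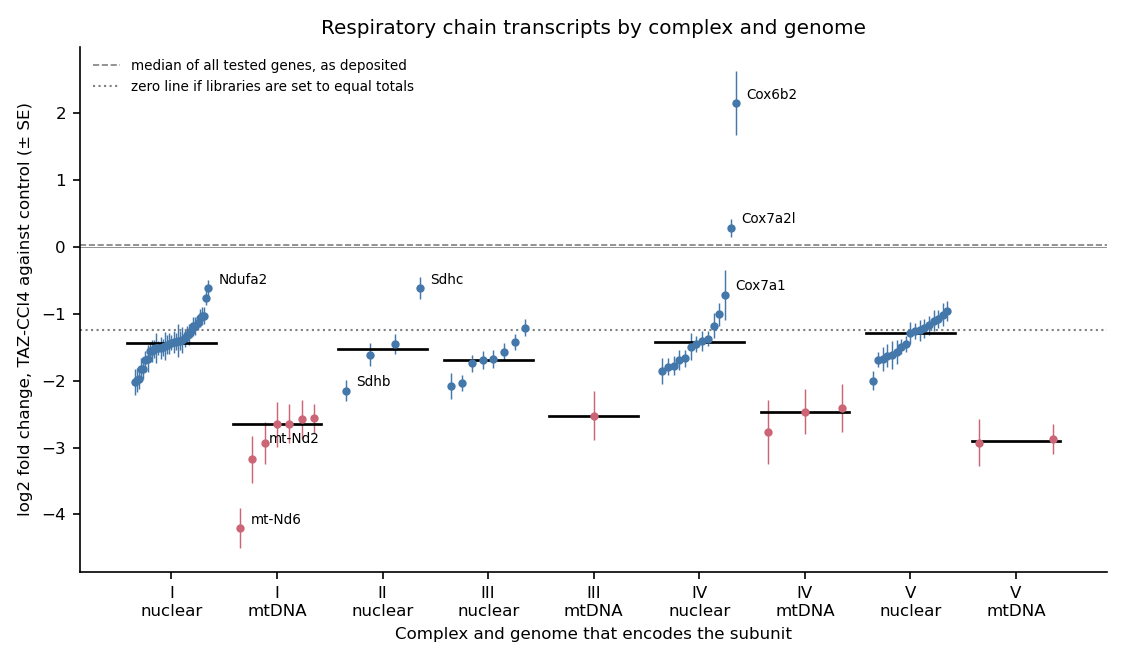
Log2 fold change (TAZ-CCl4 against control, ± SE of limma, deposited scaling) of the 91 tested members by complex and genome, nuclear in blue and mitochondrial in red. Black bars are medians, -1.28 to -1.69 for the nuclear sets and -2.47 to -2.90 for the mitochondrial ones; the dotted line shows where zero lies at equal totals.

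Among the mitochondrial genes, mt-Nd6 (chrM:13552-14070), a membrane subunit of complex I, stood furthest from the controls. It measured 2155, 1031 and 1104 normalised counts in control replicates 1 to 3 and 51.9, 59.0, 70.0, 105 and 87.2 in TAZ-CCl4 replicates 1 to 5. Every TAZ-CCl4 library lay below every control, and control replicate 1 was the highest. The mean was 5.22% of control and the log2 fold change -4.20 ± 0.30 (SE; limma, adjusted p = 1.95e-06). It is the only protein gene on the minus strand, and its end overlaps mt-Nd5 by 14 bases on the opposite strand. As a percent of mt-Nd5 it was 0.644 to 1.21 in controls and 0.265 to 0.354 in TAZ-CCl4 libraries, without overlap. In human cells its messenger RNA is known to lack a poly-A tail, and these libraries were poly-A selected; whether the setting for strand used by the authors separates the overlapping genes is not given in the sources used here. Their part in the result was not tested.

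The other 12 mitochondrial genes, all on the plus strand, lay between 11.6% and 18.8% of control. After mt-Nd6 the largest fall was that of mt-Nd2 (chrM:3914-4951), another membrane subunit of complex I. Its values were 403043, 312014 and 356101 in controls and 25885, 36502, 41030, 67722 and 35460 in TAZ-CCl4 replicates 1 to 5 (log2 fold change -3.18 ± 0.35; limma, adjusted p = 2.90e-05). The groups lay far apart, with TAZ-CCl4 replicate 4 the highest of its group. Its neighbour mt-Nd1 (chrM:2751-3707), which lies next to it on the same strand, fell less, by 2.58 on the log2 scale. As a percent of mt-Nd1, mt-Nd2 was 131 to 144 in controls and 78.8 to 124 in TAZ-CCl4 libraries.

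The remaining complex I genes mt-Nd3, mt-Nd4, mt-Nd5 and mt-Nd4l had log2 fold changes of -2.93, -2.66, -2.65 and -2.57. For complex IV, mt-Co1, the catalytic subunit that holds the oxygen-binding site, stood at 1095760 ± 110390 in controls (SD, n = 3) and 162223 ± 28458 in the 5 treated ones (SD, n = 5). Its log2 fold change was -2.77 ± 0.48 (SE; limma, adjusted p = 0.000568). The other catalytic core genes mt-Co2 and mt-Co3 had -2.41 and -2.47. mt-Cytb, the cytochrome b of complex III, had -2.53 ± 0.37, from 478574 ± 43913 to 84505 ± 18685. Per kilobase of transcript, mt-Co1 was the highest member in both groups, at 709232 and 104999 normalised counts. The highest nuclear members on that scale were Uqcrq in controls (16606) and Ndufa4 in TAZ-CCl4 libraries (7478).

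**Figure D3:**
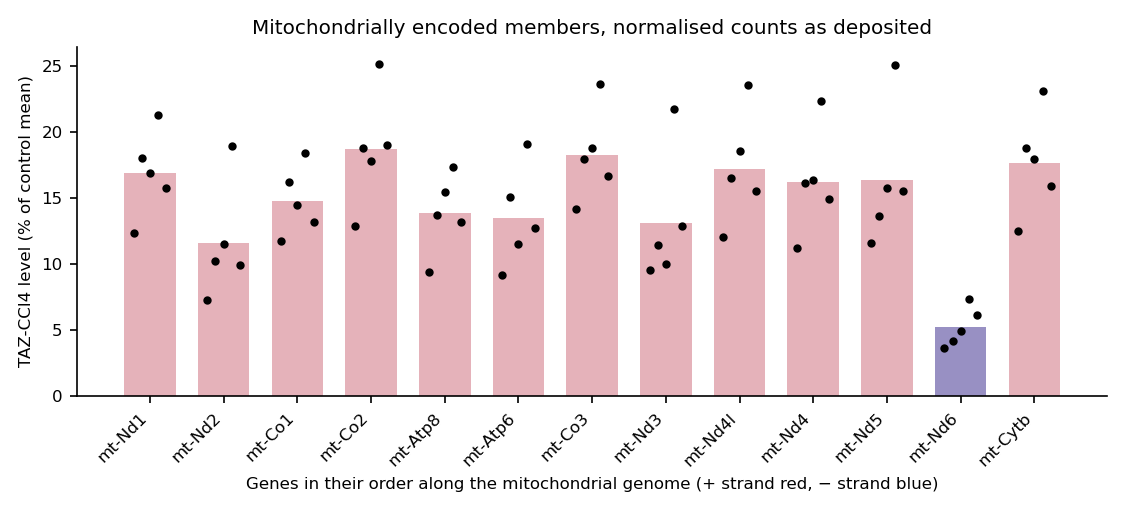
Level of each mitochondrially encoded member in the TAZ-CCl4 libraries as a percent of its control mean (normalised counts, deposited scaling), in genome order. Bars are means and points the 5 libraries; mt-Nd6, the minus-strand gene, lies at 5.22% and the others between 11.6% and 18.8%.

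The ATP synthase genes mt-Atp8 and mt-Atp6, which encode membrane subunits of complex V, are read from a shared transcript whose reading frames overlap. The overlap is shown because it limits how far the counts of these genes can be separated. On the plus strand of mm10 (GENCODE annotation), with the start codon of mt-Atp6 and the stop codon of mt-Atp8 in capitals, chrM:7927-7969 reads as follows.
mt-Atp8 and mt-Atp6: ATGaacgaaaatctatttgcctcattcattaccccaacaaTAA
The overlap is 43 bases long. The log2 fold changes were -2.87 ± 0.22 for mt-Atp8 and -2.93 ± 0.35 for mt-Atp6, and mt-Atp8 was 14.3% to 16.1% of mt-Atp6 in controls and 13.6% to 20.2% in TAZ-CCl4 libraries, with overlap between the groups. The frames of mt-Nd4l and mt-Nd4 overlap by 7 bases, and mt-Nd4l was 12.1% to 12.4% of mt-Nd4 in controls and 12.6% to 13.9% in TAZ-CCl4 libraries, without overlap.

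Copies of mitochondrial DNA in the nuclear genome share sequence with these genes, so reads can be divided between them. For mt-Co2, mt-Co3, mt-Atp6, mt-Nd4l and mt-Nd3 at least 98.1% of the 31-base words of the transcript also occur in another annotated gene; for mt-Nd6 and mt-Nd2 it is 7.4% and 13.5%. The copy of mt-Atp6, Gm10925, was at 319, 5645 and 1939 in controls and at 17878, 18466, 26038, 6037 and 10039 in TAZ-CCl4 libraries, all above the controls and opposite to mt-Atp6 itself. The copies of mt-Co1, mt-Co2 and mt-Nd3 (Gm29216, Gm28661, Gm28438) were lower, with means of 222015 and 34472, 72599 and 12006, and 10135 and 2979. With every copy added to its gene, mt-Atp6 stood at 16.9% of control in place of 13.5%, and mt-Nd3 at 17.3% in place of 13.1%. The ratio of mitochondrial to nuclear signal was then 13.4 ± 1.22 in controls and 5.65 ± 1.28 in TAZ-CCl4 libraries.

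Complex I, which oxidises NADH, has 7 nuclear core subunits that carry the flavin, the iron-sulphur clusters and part of the quinone site, and 28 tested accessory subunits. The core genes had a median log2 fold change of -1.36 and the accessory genes -1.46, and all 35 fell at the deposited scaling. None of the core genes was called at equal totals.

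The largest nuclear falls in complex I were those of Ndufa1 (chromosome X, 37187588 to 37191163), a small membrane subunit needed for assembly, and Ndufs5 (chromosome 4, 123712710 to 123718202), which faces the intermembrane space. Ndufa1 measured 1760, 1821 and 1866 in controls and 340, 336, 517, 566 and 528 in TAZ-CCl4 libraries, without overlap (log2 fold change -2.02 ± 0.20; limma, adjusted p = 1.23e-05). Ndufs5 had a log2 fold change of -1.99 ± 0.18. Both were also lower at equal totals, by 0.77 and 0.74 (log2 fold changes -0.77 and -0.74), as were Ndufb3, Ndufb5, Ndufb9 and Ndufv3. At the other end, Ndufa2, an accessory subunit of the matrix arm, measured 1781, 1756 and 2009 in controls and 1134, 1102, 1417, 1123 and 1250 in TAZ-CCl4 libraries. As deposited it fell, with a log2 fold change of -0.62 ± 0.12 (limma, adjusted p = 0.00141), and it rose at equal totals (0.63), as did Ndufa7 (-0.76 and 0.49). Ndufa1 and Ndufa2 were named as extremes among the nuclear complex I genes, so the distance between them was not tested.

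Complex II, the succinate dehydrogenase, is wholly nuclear, and its 4 genes did not move alike. Sdhb (chromosome 4, 140961203 to 140979193), which holds the iron-sulphur clusters, measured 5138, 5247 and 5711 in controls and 996, 1228, 1399, 1023 and 1476 in TAZ-CCl4 libraries. Its log2 fold change of -2.15 ± 0.15 was the largest fall of any nuclear member (limma, adjusted p = 2.11e-06), and it was lower at equal totals too (-0.90). Sdhc (chromosome 1, 171127165 to 171150603), a membrane anchor, measured 2786, 3218 and 3292 in controls and 1899, 1839, 2583, 1603 and 2276 in TAZ-CCl4 libraries. It fell at the deposited scaling (-0.62 ± 0.16; limma, adjusted p = 0.00721) and rose at equal totals (0.63). As a percent of Sdhc, Sdhb was 184, 163 and 174 in controls and 52.4, 66.8, 54.2, 63.8 and 64.9 in TAZ-CCl4 libraries, so that every control lay above every TAZ-CCl4 library. The flavoprotein gene Sdha (chromosome 13, 74322254 to 74350280) and the other anchor, Sdhd, had log2 fold changes of -1.61 and -1.45. Relative to Sdhc, Sdha was 240% to 281% in controls and 120% to 144% in TAZ-CCl4 libraries (no test, since these ratios were chosen with the values known).

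Complex III, which passes electrons from ubiquinol to cytochrome c, had the lowest nuclear median. Uqcrb (chromosome 13, 66900617 to 66905378), a subunit near the quinone site, measured 4517, 3944 and 4700 in controls and 857, 818, 1461, 972 and 1182 in TAZ-CCl4 libraries (log2 fold change -2.08 ± 0.19; limma, adjusted p = 8.39e-06). Uqcr11 (chromosome 10, 80402997 to 80406830), a small subunit, had a log2 fold change of -2.04 ± 0.12. Uqcrq (chromosome 11, 53427922 to 53430831), another small subunit, fell from 8369 ± 570.2 (SD, n = 3) to 2515 ± 255 (SD, n = 5), a log2 fold change of -1.74. These 3 genes, the Rieske protein gene Uqcrfs1 and the hinge protein gene Uqcrh were also lower at equal totals, by log2 fold changes of -0.43 to -0.83. The core protein genes Uqcrc1 and Uqcrc2 (-1.57 and -1.43) and the small subunit gene Uqcr10 (chromosome 11, 4701973 to 4704342; -1.21) were not called there.

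Complex IV, cytochrome c oxidase, has tissue isoforms, and at the deposited scaling it held the only tested members not called lower. Members higher at equal totals numbered 2 in complex I, 1 in complex II and 2 in complex IV. The common liver forms fell at the deposited scaling: Cox4i1 by a log2 fold change of -1.45, Cox6a1 by -1.79, Cox6b1 by -1.69, Cox7a2 by -1.50, Cox7b by -1.86 and Cox8a by -1.37. Cox6a1 (chromosome 5, 115345642 to 115348981) measured 6773, 6644 and 7470 in controls and 1952, 1714, 2101, 2336 and 1985 in TAZ-CCl4 libraries. Cox7b (chromosome X, 106015700 to 106022450) measured 6006, 4958 and 5694 in controls and 1108, 1304, 1877, 1922 and 1595 in TAZ-CCl4 libraries. Both pairs of groups lay well apart, and both genes were lower at equal totals, with Cox6b1, Cox6c and Cox7c.

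Cox7a2l (chromosome 17, 83501918 to 83517330) did not follow. Its protein, also called SCAF1, joins complexes III and IV into supercomplexes, and C57BL/6 mice carry a shortened, unstable form of it. It measured 1921, 2030 and 1814 in controls and 2506, 2770, 1950, 2229 and 2338 in TAZ-CCl4 libraries, so only TAZ-CCl4 replicate 3 lay within the control range. The log2 fold change was 0.29 ± 0.13 and did not pass (limma, adjusted p = 0.0818), but passed without TAZ-CCl4 replicate 3 (0.35, limma, adjusted p = 0.0344). At equal totals Cox7a2l rose by 1.54, where the median of all tested genes was 1.26 and 76.3% of them were higher. It also passed at equal upper quartiles (0.53), under quantile normalisation (0.88) and with library weights (0.26, limma, adjusted p = 0.0498). The medians of all tested genes in these settings were 0.27, -0.05 and 0.02. As a percent of the related Cox7a2, it was 61.5, 62.2 and 53.3 in controls and 282, 267, 111, 224 and 182 in TAZ-CCl4 libraries.

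The isoforms known from other tissues were low throughout. Cox6b2 (chromosome 7, 4751792 to 4753094), the testis form of the subunit that faces the intermembrane space, measured 8.34, 11.4 and 5.12 in controls and 32.8, 29.4, 35.2, 97.9 and 25.9 in TAZ-CCl4 libraries. It rose (log2 fold change 2.15 ± 0.48; limma, adjusted p = 0.00274), and without TAZ-CCl4 replicate 4 the log2 fold change was 1.83. Under quantile normalisation Cox6b2 did not pass (1.05; limma, adjusted p = 0.0781). It remained 1.31% to 5.79% of Cox6b1, its common form, against 0.0826% to 0.213% in controls. Cox4i2, the form known from lung and from hypoxic cells, was at 0, 0 and 2.42 in controls and 12.7, 5.19, 13.6, 7.63 and 9.84 in TAZ-CCl4 libraries, and was not tested. The muscle form Cox7a1 measured 17.4, 22.3 and 19.7 in controls and 10.2, 8.96, 17.3, 9.83 and 13.6 in TAZ-CCl4 libraries, and did not pass (-0.71 ± 0.37; limma, adjusted p = 0.121) except with no trend in limma (adjusted p = 0.0217) and under quantile normalisation (-1.90; adjusted p = 0.00178). Of the untested muscle and testis forms, Cox6a2 reached 5.49, Cox7b2 0.366 and Cox8b 2.15, and Cox8c was at 0 in every library. The 3 testis markers summed to at most 0.928 normalised counts in any library. The 5 muscle markers summed to 21.1 to 40.6 in controls and 20.3 to 32.9 in TAZ-CCl4 libraries, mostly from Tnnt2 and Actn2, with Ckm at most 4.56.

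**Figure D4:**
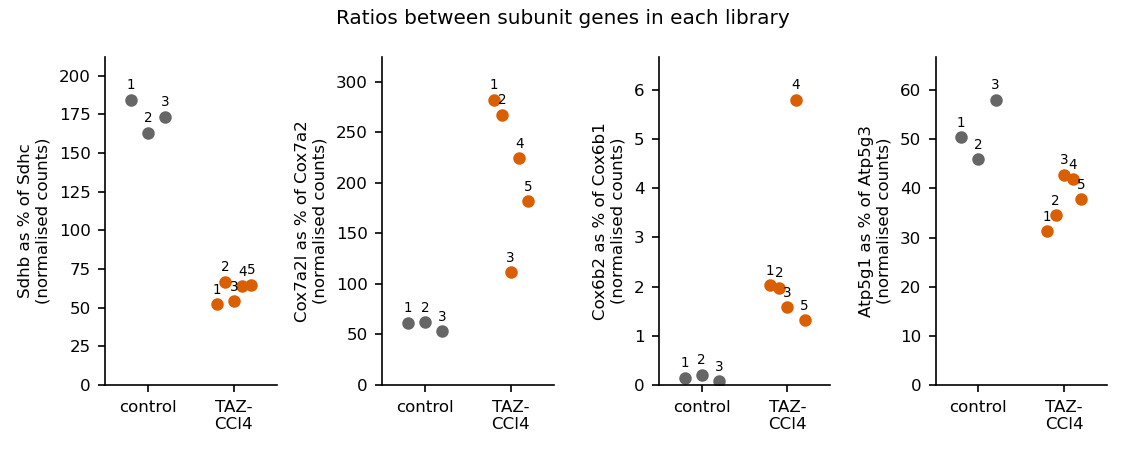
Ratios between subunit genes in each library, as a percent of normalised counts (control grey, TAZ-CCl4 orange, numbered by replicate), a measure that does not change with library scaling. Sdhb lies at 163 to 184 percent of Sdhc in controls and 52.4 to 66.8 in TAZ-CCl4 libraries, Cox7a2l lies at 111 to 282 percent of Cox7a2 in TAZ-CCl4 libraries against 53.3 to 62.2, and the Atp5g1 and Cox6b2 panels also do not overlap.

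Complex V, the ATP synthase, had the nuclear median nearest the rest of the transcriptome. Its catalytic F1 head, 5 genes with Atp5a1 and Atp5b as the largest subunits, had a median log2 fold change of -1.22, and the 12 other nuclear genes of the stalks and the membrane part -1.53. No F1 gene was called at equal totals, where their median was 0.03. Atp5b (chromosome 10, 128083273 to 128090391), the catalytic subunit, measured 23524, 22807 and 25936 in controls and 8225, 8923, 11688, 9973 and 10998 in TAZ-CCl4 libraries (-1.28 ± 0.17; limma, adjusted p = 8.41e-05). The smallest change was that of Atp5e (chromosome 2, 174461072 to 174464105), the epsilon subunit, with -0.96 ± 0.14. The largest falls were those of Atp5k (chromosome 5, 108433244 to 108434448), the e subunit at the dimer interface, and Atp5h (chromosome 11, 115415689 to 115419962), the d subunit of the peripheral stalk. Atp5k measured 2425, 2436 and 2307 in controls and 485, 520, 707, 655 and 643 in TAZ-CCl4 libraries, without overlap (-2.0 ± 0.14; limma, adjusted p = 2.21e-06). Atp5h had -1.68 ± 0.12, and both were lower at equal totals, with Atp5pb.

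Atp5g1, Atp5g2 and Atp5g3 encode the same mature c subunit of the proton-driven ring with different import signals. Their log2 fold changes were -1.63, -1.01 and -1.17 at the deposited scaling and -0.38, 0.23 and 0.08 at equal totals, where none was called. Atp5g1 (chromosome 11, 96068852 to 96075670) was 50.5%, 46.0% and 58.1% of Atp5g3 in controls and 31.3%, 34.5%, 42.8%, 41.9% and 37.8% in TAZ-CCl4 libraries, without overlap. The fall of Atp5g2 was lost when its processed pseudogene Gm10175 was added (log2 fold change -0.05; limma, adjusted p = 0.736), and Gm10175 had larger normalised counts than Atp5g2 itself, with means of 2051 and 2148 against 337 and 166. For the complex I gene Ndufb4, the copy Ndufb4c also had larger normalised counts (1719 and 525 against 568 and 218) but was lower as well, and the log2 fold change of the sum was -1.64.

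Promoters of the nuclear genes are shown because most nuclear members fell at the deposited scaling, by differing amounts, while Cox7a2l and Cox6b2 did not. The windows run from 250 bases before to 50 after the start in RefSeq (GRCm38.p6), and 68 of the 84 nuclear members had an entry. Each is printed along its own strand, with matches to the NRF1 motif (GCGC, any base, then TGCGC) and the GC box GGGCGG, on either strand, in capitals. Cox6a1 and Atp5k hold NRF1 matches and Cox7a2l and Cox6b2 hold none, but most members that fell hold none either. Only the first entry of each gene was scanned. For Cox7a2l that window lies inside the gene (chromosome 17, 83501918 to 83517330), so its outermost annotated start was not covered.
Cox6a1 promoter (chr5:115348909-115349208, minus strand): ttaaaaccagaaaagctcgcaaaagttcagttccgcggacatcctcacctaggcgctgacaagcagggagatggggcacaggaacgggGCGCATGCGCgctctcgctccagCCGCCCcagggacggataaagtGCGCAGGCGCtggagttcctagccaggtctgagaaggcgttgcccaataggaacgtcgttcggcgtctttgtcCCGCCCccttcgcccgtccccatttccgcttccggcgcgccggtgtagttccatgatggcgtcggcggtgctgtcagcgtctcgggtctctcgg
Atp5k promoter (chr5:108434350-108434649, minus strand): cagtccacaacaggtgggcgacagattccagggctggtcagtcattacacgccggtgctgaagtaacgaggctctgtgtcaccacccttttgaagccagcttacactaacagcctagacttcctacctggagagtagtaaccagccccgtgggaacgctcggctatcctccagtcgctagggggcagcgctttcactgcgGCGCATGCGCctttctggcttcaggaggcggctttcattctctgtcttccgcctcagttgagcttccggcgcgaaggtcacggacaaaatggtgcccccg
Cox7a2l promoter (chr17:83514284-83514583, minus strand): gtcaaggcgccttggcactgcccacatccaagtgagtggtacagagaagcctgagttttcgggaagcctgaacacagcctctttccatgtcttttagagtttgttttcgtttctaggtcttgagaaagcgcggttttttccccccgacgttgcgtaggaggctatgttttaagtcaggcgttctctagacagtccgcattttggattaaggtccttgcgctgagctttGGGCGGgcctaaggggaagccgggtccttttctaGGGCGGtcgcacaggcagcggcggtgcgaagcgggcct
Cox6b2 promoter (chr7:4753045-4753344, minus strand): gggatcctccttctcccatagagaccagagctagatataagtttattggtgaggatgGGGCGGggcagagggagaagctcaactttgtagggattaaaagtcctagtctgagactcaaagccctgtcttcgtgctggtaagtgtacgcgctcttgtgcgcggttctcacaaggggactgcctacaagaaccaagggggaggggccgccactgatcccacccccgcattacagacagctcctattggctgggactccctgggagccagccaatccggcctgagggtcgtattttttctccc
The NRF1 motif was present in 16 of 68 member promoters (23.5%) and in 4.78% of all 27025 promoters in the table. YY1 (AAGATGGCG) was present in 8.82% and 1.5%, the ETS motif bound by GABPA (CCGGAAGT) in 7.35% and 4.0%, the motif of the receptor ERR alpha (TCAAGGTCA) in 2.94% and 0.407%, and the GC box in 41.2% and 35.9%. The median log2 fold change was -1.47 over the 16 tested members with an NRF1 match, of which 16 fell, and -1.46 over the 50 without, of which 47 fell. A match is a string of letters and not a measured site.

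Genes that build and serve the chain were mostly lower at the deposited scaling, with medians above those of the subunits. At that scaling 29.8% of all tested genes were lower and 32.4% higher. Of the assembly factors, 12 of 14 fell for complex I (median log2 fold change -1.09), 3 of 4 for complex II (-0.58), 6 of 6 for complex III (-0.83), 14 of 18 for complex IV (-0.91) and 2 of 3 for complex V (-0.87), and none rose. At equal totals 2 of the complex I factors, 1 of the complex IV factors and none of the others were lower, and 5, 3, 2, 8 and 2 were higher in the same order, where 6.37% of all tested genes were lower and 76.3% higher. Ecsit, a complex I assembly factor, measured 1114, 1154 and 1217 in controls and 183, 338, 209, 226 and 209 in TAZ-CCl4 libraries (-2.35 ± 0.19; limma, adjusted p = 4.10e-06), and was lower at equal totals (-1.10). Sco2, a copper chaperone of complex IV, had -1.88 and -0.63 at these scalings and was lower in both. Sdhaf3, Uqcc3 and Atpaf1, the largest falls among the factors of complexes II, III and V, had -1.07, -0.98 and -0.87 and were not called at equal totals.

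Cytochrome c and the partners just outside the symbol rule followed the nuclear subunits with exceptions. Cycs, the cytochrome c gene, and Cyc1, the cytochrome c1 of complex III, had log2 fold changes of -1.59 and -1.43, against -0.34 and -0.17 at equal totals, where neither was called. Atpif1, the inhibitor of ATP hydrolysis by complex V, rose: it measured 364, 360 and 374 in controls and 929, 691, 949, 963 and 1135 in TAZ-CCl4 libraries (1.33 ± 0.16; limma, adjusted p = 4.50e-05). Every TAZ-CCl4 value lay above every control, while both mitochondrial and all 17 tested nuclear subunits of complex V fell at this scaling. Ndufa4l2, a relative of Ndufa4 known from hypoxic cells, did not pass (-0.74; limma, adjusted p = 0.0807), but was lower without control replicate 2 (-1.02; limma, adjusted p = 0.0380) and under quantile normalisation (-1.64; limma, adjusted p = 0.00231).

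For the upkeep and transcription of mitochondrial DNA, 11 of 15 genes fell and none rose (median -0.71), against 10 higher and none lower at equal totals. Tfam, which packages and helps transcribe mitochondrial DNA, measured 684, 866 and 699 in controls and 533, 478, 621, 569 and 602 in TAZ-CCl4 libraries, without overlap. Its log2 fold change was -0.42 ± 0.14 (limma, adjusted p = 0.0227) at the deposited scaling, 0.83 and higher at equal totals, and it did not pass without control replicate 2 (-0.31; limma, adjusted p = 0.119) or with the replicate number as a block (-0.46; limma, adjusted p = 0.0821). It also did not pass at equal upper quartiles (-0.17; limma, adjusted p = 0.319) or under quantile normalisation (-0.26; limma, adjusted p = 0.128). Polg2, the accessory subunit of the mitochondrial DNA polymerase, had -1.28 and -0.04 at these scalings and was not called in the second. The regulators of nuclear respiratory genes had a median of -0.02, with 4 lower, 3 higher and 5 not called of 12, and none lower and 9 higher at equal totals. Both counts lie near the shares over all tested genes, 29.8% lower and 32.4% higher as deposited and 76.3% higher at equal totals. The coactivator Ppargc1a measured 168, 176 and 266 in controls and 122, 206, 92.6, 224 and 135 in TAZ-CCl4 libraries, overlapped between groups and did not pass (-0.43 ± 0.30; limma, adjusted p = 0.245); at equal totals it rose (0.82). Myc rose (2.34 ± 0.28), and Esrrg, a low-level receptor gene, fell (-2.12 ± 0.53) but was not called at equal totals (-1.03).

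The counts of neighbouring mitochondrial functions stand beside 29.8% lower and 32.4% higher over all tested genes at the deposited scaling, and 6.37% lower and 76.3% higher at equal totals. Of the citric acid cycle and pyruvate dehydrogenase genes, 15 of 17 fell (median -1.13). At equal totals none of them was lower and 4 were higher (median 0.12). Fh1, the fumarase, fell by 1.69 on the log2 scale, and Idh2, the NADP-linked isocitrate dehydrogenase, rose by 0.88. In coenzyme Q synthesis 9 of 13 fell and 1 rose (median -0.86), with Coq3 at -2.12 and Coq8b at 0.83; at equal totals 2 were lower and 7 higher (median 0.38). In the list of outer membrane, import and dynamics genes 14 of 18 fell (median -0.69), and 14 were higher at equal totals, near the share over all tested genes. The fusion gene Mfn2 had -1.45 and was not called at equal totals (-0.20; limma, adjusted p = 0.344). Of 4 tested carriers and uncoupling genes 2 rose and 1 fell, and all 4 were higher at equal totals. Slc25a4, the ADP/ATP carrier known as the heart and muscle form, measured 88.3, 105 and 107 in controls and 2248, 2403, 1391, 2558 and 1909 in TAZ-CCl4 libraries (4.35 ± 0.20; limma, adjusted p = 2.10e-07). Slc25a5, the form known from dividing cells, fell by 0.63 at the deposited scaling and was higher at equal totals (0.62). It did not pass at equal upper quartiles (-0.39; limma, adjusted p = 0.0534) or under quantile normalisation (0.42; limma, adjusted p = 0.0549).

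**Figure D5:**
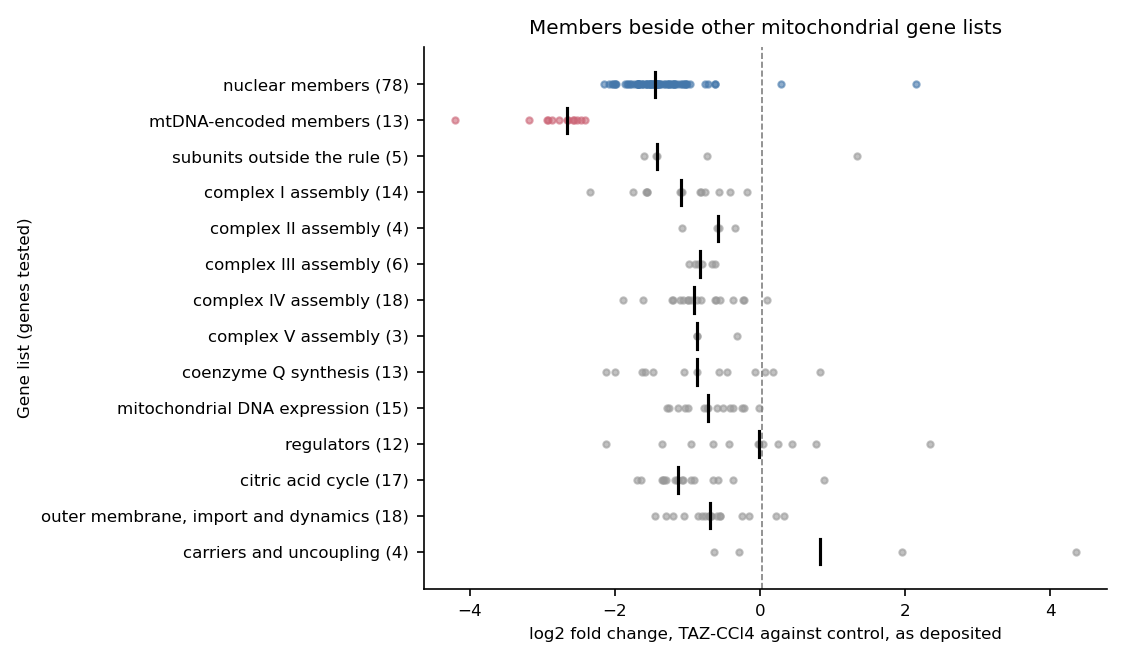
Log2 fold changes (deposited scaling) of the nuclear and mitochondrial members and of the other mitochondrial gene lists, with the number of tested genes in brackets. Dots are genes, black bars medians and the dashed line the median of all tested genes (0.03); the mitochondrial members lie at -2.66, the nuclear members at -1.45 and the other lists between -1.41 and 0.83.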

How the data were processed

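Per the labels' protocols, liver RNA was poly-A selected, made into Illumina TruSeq libraries and sequenced in pairs on a NovaSeq. The normalised signal per gene and library that the authors deposited is, per the name of the table, kallisto quantification scaled with DESeq2, that is, gene counts divided by scaling factors. The submitters' processing notes name DESeq2 and mm10. Not given in the sources used here are versions, transcript annotation, strand setting, filters and whether the scaling factors differ between genes of a library. The values are not whole counts: between 47.3% and 66.7% of those under 10 came within 0.03 of a multiple of the step taken as 1 read, so no count model was run, and the depths given are estimates.

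Genes with a mean of at least 10 (14171) were compared as log2(value + 1) by limma 3.58.1 in R 4.3.3, using the trended prior, no covariate and Benjamini-Hochberg adjustment over all of them at 0.05. On that scale the fold change of a low gene is understated. Members, gene lists, marker lists and ratios were chosen with earlier results of these data known, so counts over them are descriptions beside those of all genes. Ratios of sums got no test. All 97 members were found in GENCODE M21, which gave positions and shared 31-base words; rows annotated as pseudogenes that share at least 50 such words were summed with their member as an alternative added after the data were seen. Promoters came from RefSeq (GRCm38.p6).

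Described by name are all mitochondrial members; per complex the 2 largest called rises and falls, the smallest change and the largest control mean among nuclear members; isoform groups; the members nearest the filter; and from each related list the largest called rise and fall, with Ppargc1a, Tfam, Cyc1, Cycs and Ndufa4l2. This gave 66 genes, of which 1 is not reported here; others were named after their values were seen. Alternatives were other scalings, pseudocounts, filters, limma settings, a replicate block and leaving out each library.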

Additional observations from a re-analysis of the deposited data

Results flagged for a closer look

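In each TAZ-CCl4 group of 5 values, the highest and lowest library were compared with the nearest of the others. In 4 of 98 groups the gap took more of the range than Dixon's 95% limit (0.71) allows; chance gives about 1 in 20. TAZ-CCl4 replicate 4 was high for Cox6b2, with 97.9 normalised counts against 25.9 to 35.2 in the other TAZ-CCl4 libraries. The same library was high for mt-Nd3, with 6401 against 2800 to 3784, and had the largest ratio of mitochondrial to nuclear signal of its group, 7.35. Without replicate 4 the log2 difference in that ratio was -1.42, against -1.30 with it. TAZ-CCl4 replicate 1 was low for Ndufs7, a core subunit of complex I, with 594 against 751 to 815. It was also low for Atp5mpl, a small membrane subunit of complex V, with 624 against 922 to 997, and had the lowest mitochondrial share of any library, 3.66%. The part of depth in these values was not tested, and TAZ-CCl4 replicate 4 had the most estimated reads, 33.8 M. For mt-Nd3 the division of reads with its copy Gm28438 was not tested either. That copy measured 1948, 3182, 3738, 3246 and 2782 in TAZ-CCl4 replicates 1 to 5.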

How the results depend on the processing

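The 88 members lower became 33 at equal totals and 30 when libraries were centred on the nuclear members, of which nuclear ones were 75, 20 and 17; by complex, lower members went from 42 to 13 and 12 (I), from 4 to 1 and 1 (II), from 14 to 8 and 8 (IV) and from 19 to 5 and 3 (V). The single higher member, which is nuclear, became 5 at equal totals, 9 when centred, 2 at equal upper quartiles, 2 when totals were set equal leaving out Mup and mitochondrial genes, 2 with library weights, 3 with no filter and 0 with a mean of at least 100. Members lower numbered 88 at equal upper quartiles and 72 under quantile normalisation, of which nuclear ones were 75 and 66. With totals set equal leaving out Mup and mitochondrial genes they numbered 74, of which 61 were nuclear. Centring sets the nuclear average equal between libraries, so it cannot show a fall of the nuclear members as a set. All 13 mitochondrial members stayed lower except under quantile normalisation, with 6. That setting also turned the log2 difference in the ratio of mitochondrial to nuclear signal from -1.30 to 0.20 and moved that in the mitochondrial share from -1.44 to -0.40. Among the other mitochondrial lists, 94 genes lower and 8 higher became 5 and 69 at equal totals and 4 and 78 when centred. Without Mup and mitochondrial genes they became 26 and 33. The tested transcriptome moved the same way, so the shift is not particular to these lists. Its shares, 29.8% lower and 32.4% higher as deposited, became 6.37% and 76.3% at equal totals and 5.65% and 79.5% when centred. Without Mup and mitochondrial genes its median stood at 0.85 on the log2 scale.

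Leaving out each library gave 88 lower members throughout and 1 to 2 higher (2 without TAZ-CCl4 replicate 3), a ratio difference of -1.42 to -1.22 and a share difference of -1.58 to -1.34. Single genes turned direction with scaling. At equal totals these were Ndufa2 (0.63), Sdhc (0.63), Uqcr10 (0.0437), Atp5e (0.29), Cox7a1 (0.46), Atp5g2 (0.23), Atp5g3 (0.079), Sdhaf3 (0.17), Uqcc3 (0.26), Atpaf1 (0.38), Slc25a5 (0.62), Ppargc1a (0.82), Tfam (0.83) and Ndufa4l2 (0.49). When centred they were Ndufa2 (0.76), Sdhc (0.76), Uqcr10 (0.17), Atp5e (0.42), Atp5b (0.0944), Cox7a1 (0.66), Cox8a (0.0044), Atp5g2 (0.36), Atp5g3 (0.21), Sdhaf3 (0.31), Uqcc3 (0.39), Atpaf1 (0.51), Polg2 (0.10), Slc25a5 (0.74), Ppargc1a (0.95), Tfam (0.96) and Ndufa4l2 (0.64). Without Mup and mitochondrial genes they were Ndufa2 (0.21), Sdhc (0.21), Cox7a1 (0.0649), Slc25a5 (0.20), Ppargc1a (0.40), Tfam (0.41) and Ndufa4l2 (0.0781), and under quantile normalisation Sdhc (0.0333), Atp5b (0.17) and Slc25a5 (0.42).

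Libraries that share a number in the labels did not deviate together (correlations -0.0665, -0.064 and -0.0883). No pairing by number was seen, though so few correlations cannot exclude it. With the replicate number as a block, 88 members were lower and 1 higher, and of the named genes only Tfam lost its call. The cause of the shifts between scalings was not tested, and whole reads were not recovered, so counting error is unknown.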
